A study of Mus musculus with 12 samples.

Results

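Day 6 of osteogenic culture in the absence of the EZH2 inhibitor GSK126 was set against day 1 of the same culture in MC3T3 sc4 cells, a clonal mouse pre-osteoblast line labelled as calvarial osteoblasts of strain C57BL/6 at passage 12. The comparison uses 6 of the 12 RNA-seq libraries of the series: the 3 libraries of day 6 (Vehicle, 10 ng/ml BMP2 and 50 ng/ml BMP2) and the 3 libraries of day 1 given the same 3 treatments, matched by BMP2 dose. All 6 cultures were in osteogenic medium with ascorbic acid and β-glycerol phosphate, none received GSK126, and the other 6 libraries repeat the same days and doses with 5 µM GSK126. Each condition was 1 library, so the 3 doses stand in for replicates of each day. Nothing in the labels gives separate cultures for the libraries. The p-values of the day change measure its spread between these 3 pairs, which differ in BMP2 dose. That spread may be technical or part of the response to BMP2, and these cannot be told apart. The tests of the dose trend and of GSK126 measure another spread, given with them.

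Osteoblast maturation in culture runs from dividing progenitors, through secretion of a collagen matrix, to the deposition of mineral on that matrix. RUNX2 and SP7 are the transcription factors the lineage requires, alkaline phosphatase supplies phosphate for mineral, and bone sialoprotein and osteocalcin are proteins of the mineralised matrix. BMP2 binds type I and type II receptor kinases that phosphorylate SMAD1, SMAD5 and SMAD9, and EZH2 is the catalytic subunit of PRC2, the complex that methylates histone H3 at lysine 27. The cultures compared here received no GSK126. The activity of EZH2 and histone methylation itself were not analysed here.

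The 6 libraries held 74301112 to 95996102 counts. Every count above 0 was even, and 2 counts are given here as 1 read pair. Levels are CPM, counts scaled to a common library size and adjusted by TMM factors of 0.821 to 1.1. The floor used here, 3 read pairs, came to 0.0625 to 0.0808 CPM before those factors. In a multidimensional scaling of the 6 libraries the leading axis (73.6% of the variance) placed the day 6 libraries at 1.48 to 1.97 and the day 1 libraries at -1.77 to -1.65. The next axis (18.8%) spread the day 6 libraries from 1.5 at 0 ng/ml BMP2 to -1.47 at 50 ng/ml, against 0.30 to -0.30 for the same doses on day 1. The libraries of day 6 thus lay farther apart by dose than those of day 1. The 45S ribosomal RNA precursor Rn45s made up 15.4%, 17.16% and 21.66% of the counts on day 6 at the 3 doses, against 11.71%, 10.9% and 10.69% on day 1. Its part in the results was not tested, and leaving it out of the table before scaling moved the number of called genes to 5321.

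The labelled cell type was checked against its markers. All 10 pre-osteoblast markers were detected, with a summed level of 61744 to 138928 CPM on day 6 and 42385 to 50751 CPM on day 1, and 5 of them were higher on day 6. Col1a1 and Col1a2 (28261 and 31203 CPM in the day 6 Vehicle library) made up nearly all of this sum. It therefore says little about the level of the other markers. Of the 5 osteocyte markers, Fgf23 was at 0 in all 6 libraries and Sost had at most 2 read pairs in any library. Mepe had 22, 6 and 6 read pairs on day 6 and 1 in each day 1 library. Dmp1 and Phex, given below, were detected in all 6 libraries. The list summed to 13.2 to 105 CPM on day 6 and 5.84 to 13.7 CPM on day 1. The 6 endothelial markers summed to at most 0.0851 CPM on day 6 and 0.28 CPM on day 1. The chondrocyte list summed to 94.4 to 432 CPM on day 6 and 2323 to 3734 CPM on day 1. Sox9 and Col2a1 were the chondrocyte markers above 5 CPM in every library. Of the 4 tested genes of the list Col2a1 and Sox9 fell, Hapln1 rose and Matn3 did not pass. The adipocyte, skeletal muscle and epithelial lists summed to at most 8.83, 7.43 and 5.02 CPM on day 6. On day 1 they reached 6.32, 6.22 and 11 CPM. The neural list summed to 19.3 to 105 CPM on day 6 and 45.1 to 86.1 CPM on day 1. None of its 3 tested genes passed. The leukocyte list summed to 181 to 198 CPM on day 6, against 59.5 to 63.3 CPM on day 1. Nearly all of it was Ctsk, the collagen-degrading cathepsin K, at 191, 188 and 175 CPM on day 6 and 56.5, 58.2 and 59.8 CPM on day 1. Lyz2 of the same list was also called higher on day 6. In bulk RNA, more or fewer cells of a kind and more or less RNA per cell cannot be told apart.

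Of 11773 genes tested with edgeR's quasi-likelihood test with BMP2 dose as a term, 2574 (21.9%) were higher and 2695 (22.9%) were lower on day 6 at a Benjamini-Hochberg adjusted p under 0.05. These 44.8% are the background against which each list below is read. With a change of at least 2-fold, 719 genes (6.11%) were higher and 793 (6.74%) lower. With library sizes alone in place of TMM scaling the split was 1253 higher and 3712 lower, and the median log2 change over all genes was -0.20 in place of 0.02. Leaving out either 10 ng/ml library ended every call: no gene passed without the day 6 library (3995 at an unadjusted p under 0.05, smallest adjusted p 0.0645) or without the day 1 library (3989, smallest adjusted p 0.0667). With another library left out, 4078 to 4724 genes passed. The adjusted p-values of this day change given below therefore rest on both 10 ng/ml libraries. In each of the 6 fits all of the called genes that could be fitted kept the sign of their change. That is no independent support, since these genes were called for a change shared by the same libraries.

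Genes of the mineralising matrix rose by large factors. Ibsp, which encodes bone sialoprotein (chromosome 5, 104299287 to 104311472, mm10), measured 239, 1062 and 2381 CPM on day 6 at 0, 10 and 50 ng/ml BMP2, against 3.93, 22.8 and 31.5 CPM on day 1. The lowest day 6 library was above the highest day 1 library, and the log2 change was 5.90 ± 0.19 (SE, adjusted p = 0.00176), a 59.9-fold difference. It was 5.92, 5.54 and 6.24 at the 3 doses, so the rise was of nearly one size with and without BMP2 while the level on both days rose with the dose. Alpl, tissue-nonspecific alkaline phosphatase (chromosome 4, 137741732 to 137796377), measured 12.4, 38.2 and 58.7 CPM on day 6 and 0.884, 2.11 and 3.79 CPM on day 1, again with no overlap (log2 change 3.99 ± 0.11, adjusted p = 0.00176).

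Osteocalcin was close to absent on day 1. Bglap held 212, 1167 and 6073 read pairs on day 6 (4.51, 30.2 and 185 CPM), against 2, 5 and 8 read pairs on day 1. Bglap2, a near-identical neighbour on chromosome 3, held 85, 118 and 1461 read pairs on day 6 and 1, 2 and 4 on day 1. Both passed the test (adjusted p = 0.00333 and 0.00399), and no fold is given against so few reads. Reads that the copies share could have been split by the counting, so the level of each one is uncertain.

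The promoters of 3 of these genes are shown because their products stand at successive steps of the lineage: Runx2, the factor that binds the RUNX motif ACCACA, and Ibsp and Bglap, genes of the mineralised matrix that rose. Each window runs from 250 bases before to 50 bases after the annotated start, 5′ to 3′ on the gene's strand, from RefSeq in build GRCm38.p6. Capitals mark each match to the RUNX motif, the TATA motif TATAAA and the CCAAT motif, searched on both strands of all 3 windows.
Runx2, chr17:44814578-44814877, minus strand: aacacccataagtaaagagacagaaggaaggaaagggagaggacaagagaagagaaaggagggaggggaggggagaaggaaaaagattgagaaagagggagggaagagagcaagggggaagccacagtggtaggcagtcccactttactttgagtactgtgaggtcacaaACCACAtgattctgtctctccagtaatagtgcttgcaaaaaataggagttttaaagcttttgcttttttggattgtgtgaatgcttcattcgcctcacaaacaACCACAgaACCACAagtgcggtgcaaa
Bglap, chr3:88384417-88384716, minus strand: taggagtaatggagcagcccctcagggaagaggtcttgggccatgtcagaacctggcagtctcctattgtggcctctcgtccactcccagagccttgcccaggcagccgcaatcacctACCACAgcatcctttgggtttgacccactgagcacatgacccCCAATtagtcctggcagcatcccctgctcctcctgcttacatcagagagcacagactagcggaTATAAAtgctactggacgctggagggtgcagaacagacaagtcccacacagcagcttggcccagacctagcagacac
Ibsp, chr5:104299037-104299336, plus strand: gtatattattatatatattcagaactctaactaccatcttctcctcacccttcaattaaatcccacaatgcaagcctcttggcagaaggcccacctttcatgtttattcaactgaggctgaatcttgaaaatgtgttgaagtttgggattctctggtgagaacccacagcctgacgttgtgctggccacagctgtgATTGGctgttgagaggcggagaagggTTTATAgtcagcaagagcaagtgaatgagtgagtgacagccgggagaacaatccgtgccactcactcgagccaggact
In the Bglap window the RUNX motif lay at -132 to -127, the CCAAT motif at -90 to -86 and the TATA motif at -27 to -22, counted from the start. The Runx2 window held the RUNX motif at -80 to -75, 24 to 29 and 32 to 37. The Ibsp window held both of its marked motifs in inverted form, the CCAAT motif at -54 to -50 and the TATA motif at -28 to -23, and no ACCACA. Over all 32851 promoter windows, 16.8% held a RUNX motif, 13.6% a TATA motif and 37.4% a CCAAT motif. For the 12 bone matrix genes with a window, the counts were 5, 5 and 11 of 17 windows. A match is a description of the letters, not a binding site. These motifs and those named further on are from 14 searched, all on both strands, and were chosen for the text with their counts known. The 14 were the RUNX, TATA and CCAAT motifs, the E2F, CHR, ATF4-type and TEAD motifs given with their results, the sterol element TCACNCCAC, the AP-1 motif TGACTCA, the TCF motif CTTTGAT, the SMAD motif GGCGCC, the homeodomain motif TAATTA, the SP1 motif GGGCGG and the short E2F form GCGGGAA. TTTGGCGC can overlap GGCGCC by shared letters.

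**Figure D1:**
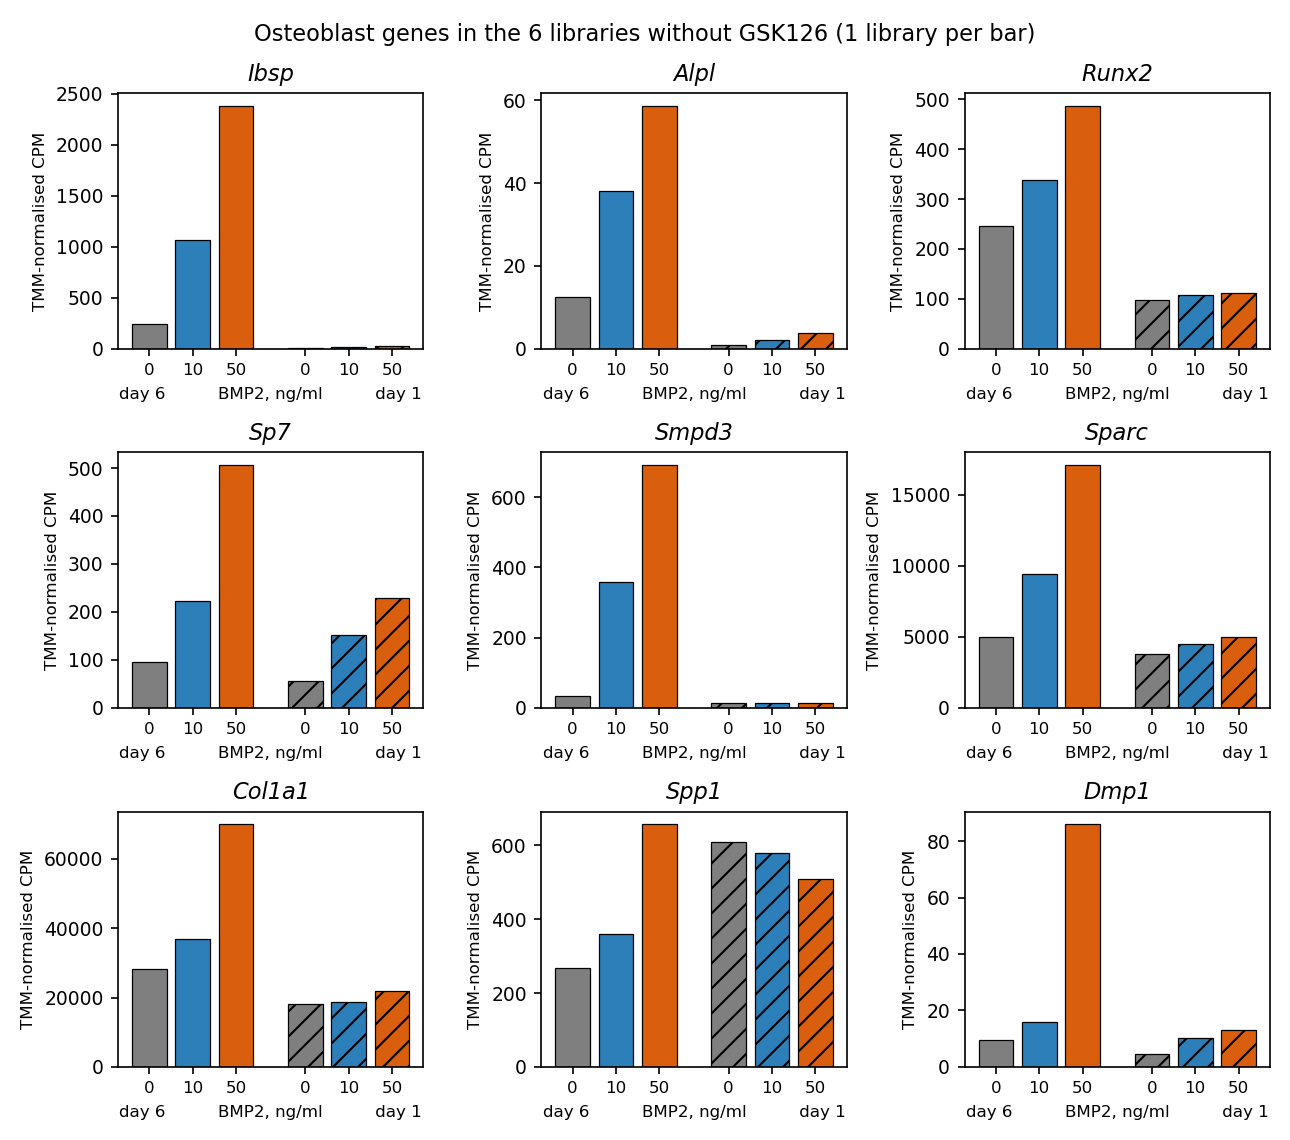
TMM-normalised CPM of 9 osteoblast genes in the 6 libraries without GSK126, 1 bar per library, with day 6 (plain bars) left of day 1 (hatched bars) and BMP2 at 0, 10 and 50 ng/ml within each day. Ibsp, Alpl, Runx2 and Smpd3 were higher in each day 6 library than in any day 1 library, while Spp1 overlapped between the days.

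Of the 14 bone matrix genes tested, 9 rose and 1 fell, against 21.9% and 22.9% of all genes, and the median log2 change was 1.28 against 0.02 over all genes. Ifitm5, an osteoblast membrane protein, measured 2.68, 61.9 and 97.2 CPM on day 6, against 0.761, 0.559 and 0.53 CPM on day 1 (log2 change 5.67 ± 1.45, adjusted p = 0.0385). Omd, the mineral-binding proteoglycan osteomodulin, rose by 6.44 ± 0.41 and Dcn, the collagen-binding proteoglycan decorin, by 4.66 ± 0.67 on the log2 scale. Col1a1, the chief collagen chain of bone, measured 28261, 36798 and 70192 CPM on day 6 and 18217, 18793 and 22033 CPM on day 1 (log2 change 1.09 ± 0.25, adjusted p = 0.0277). Col1a2, the other type I chain, was higher in each day 6 library but did not pass (0.76 ± 0.23, adjusted p = 0.0552). Sparc, osteonectin, rose 2.11-fold (adjusted p = 0.0481) and Mgp, the mineral inhibitor matrix Gla protein, 1.81-fold. Bgn, the proteoglycan biglycan, fell by 0.67 ± 0.13 on the log2 scale. With library sizes alone, 7 of the 14 rose and 1 fell, and without one of the 4 libraries other than those at 10 ng/ml, 8 to 9 rose.

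Spp1, osteopontin, did not pass: it measured 269, 360 and 659 CPM on day 6, against 609, 579 and 510 CPM on day 1 (adjusted p = 0.271), and the days overlapped. Its change was -1.18, -0.69 and 0.37 at 0, 10 and 50 ng/ml. Dmp1, a matrix protein of late osteoblasts and osteocytes, measured 9.45, 16 and 86.2 CPM on day 6 and 4.71, 10.1 and 13 CPM on day 1 (adjusted p = 0.0668). Phex, an endopeptidase of the same stage, measured 3.21, 2.59 and 18.7 CPM on day 6 and 1.1, 0.968 and 0.647 CPM on day 1 (adjusted p = 0.0738). Both stood highest in the day 6 library with 50 ng/ml. Per length, the authors' RPKM values in that library were 9442 for Col1a1, 4703 for Sparc, 770 for Ibsp, 187 for Bglap and 14.8 for Alpl, against 4024, 1861, 13.8, 0.216 and 1.29 RPKM in the day 1 library with 50 ng/ml.

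Among the 7 mineralisation genes tested, 2 rose and 1 fell. Phospho1, a phosphatase of matrix vesicles, measured 9.75, 65.5 and 144 CPM on day 6, against 1.6, 1.51 and 2.49 CPM on day 1 (log2 change 4.74 ± 0.81, adjusted p = 0.0155). Smpd3, a sphingomyelinase needed for mineralisation in mice, lay just outside the threshold at an adjusted p of 0.0501. It measured 34.2, 358 and 693 CPM on day 6 and 14.8, 14.3 and 13.2 CPM on day 1, with no overlap, which holds for 29.6% of all genes in that direction. Slc20a1, a phosphate importer, fell by 0.81 ± 0.06 on the log2 scale. Slc8a3, a sodium-calcium exchanger, was higher in each day 6 library (2.09, 50.1 and 155 CPM) than in any day 1 library (0.245, 0.237 and 0.177 CPM), while its relative Slc8a1 fell by 2.82 ± 0.14.

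Among the 15 osteoblast transcription factors tested, 4 rose and 3 fell, a share near the background. Runx2 measured 245, 338 and 487 CPM on day 6, against 98.2, 107 and 111 CPM on day 1 (log2 change 1.71 ± 0.18, adjusted p = 0.00625). Sp7, osterix, which acts downstream of Runx2, measured 95.1, 222 and 507 CPM on day 6 and 56.5, 152 and 228 CPM on day 1. The days overlapped for Sp7, whose level also climbed with dose on both days, but each dose-matched pair was higher on day 6 (log2 change 0.82 ± 0.14, adjusted p = 0.0138). Dlx3, a homeobox factor that acts in osteoblast differentiation, rose by 3.93 ± 0.33, and Twist1, a RUNX2 antagonist, by 0.67 ± 0.08. The factors that fell were Msx2, Sox9, which drives cartilage differentiation, and Twist2, by 1.25 ± 0.20, 0.88 ± 0.18 and 0.82 ± 0.20 on the log2 scale.

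Several fibrillar collagens rose as well. Of 20 collagen genes other than the type I chains, 8 rose, 1 fell and 11 did not pass. Those that did not pass included the fibrillar Col5a1, Col5a2 and Col5a3 and the network collagens Col4a1, Col4a2 and Col8a1. The 3 type V genes changed by 0.23 ± 0.14, 0.57 ± 0.19 and 0.68 ± 0.42 on the log2 scale. Col3a1 measured 9995, 8621 and 8409 CPM on day 6, against 2171, 2012 and 2097 CPM on day 1, and Col11a1 777, 683 and 929 CPM against 189, 185 and 181 CPM. Neither overlapped between days (log2 changes 2.10 ± 0.11 and 2.10 ± 0.12, adjusted p = 0.00284 each). Col24a1, a fibrillar collagen of bone, rose 51.9-fold and Col15a1, a basement membrane zone collagen, 12.1-fold. Col2a1, the collagen of cartilage, went the other way: it measured 64, 99.2 and 367 CPM on day 6 and 2281, 3139 and 3665 CPM on day 1 (log2 change -4.50 ± 0.48, adjusted p = 0.00652). Of 28 collagen-processing genes, 11 rose and 4 fell, and with library sizes alone 4 rose and 6 fell. P4ha1 and P4ha2, subunits of the prolyl hydroxylase that stabilises the triple helix, rose by 1.37 ± 0.14 and 1.04 ± 0.10 in the TMM fit and kept that direction with library sizes alone. The lysyl oxidases Loxl1 and Loxl3, which cross-link matrix, fell by 1.82 ± 0.25 and 1.01 ± 0.11. Lox itself did not pass (338, 774 and 2044 CPM on day 6 against 1040, 1316 and 1420 CPM on day 1).

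Matrix-degrading enzymes and their inhibitors divided evenly, with 4 of 12 higher and 4 lower. Mmp2, gelatinase A, rose by 1.15 ± 0.11, its activator Mmp14 by 0.74 ± 0.07 and the aggrecanase Adamts4 by 2.00 ± 0.29 on the log2 scale. Mmp11, Adamts5 and the inhibitor Timp3 fell by 1.32 ± 0.07, 1.93 ± 0.08 and 0.84 ± 0.10. Mmp13, the collagenase of mature osteoblasts, was highest in the day 6 Vehicle library (13.2 CPM, against 0.933 and 2.53 CPM in the day 6 libraries with BMP2 and 0.368, 1.44 and 1.41 CPM on day 1) and did not pass (adjusted p = 0.383). Lum, the small leucine-rich proteoglycan lumican, was at 651, 175 and 176 CPM on day 6, against 2.95, 2.69 and 2.53 CPM on day 1, and its relative Aspn, asporin, at 854, 418 and 247 CPM against 48.7, 66.6 and 58.4 CPM. Both were highest in the day 6 Vehicle library.

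BMP-SMAD target genes were lower on day 6. Of 17 tested, 10 fell and 1 rose, with a median log2 change of -1.68. Id1, an inhibitor of helix-loop-helix factors and an early BMP target, measured 1.28, 0.881 and 4.14 CPM on day 6, against 17.4, 24.1 and 30.5 CPM on day 1 (log2 change -3.75 ± 0.41, adjusted p = 0.00687). Id2, Id3 and Id4 fell by 2.65 ± 0.42, 1.68 ± 0.45 and 2.78 ± 0.58. The inhibitory SMAD genes fell too: Smad6 measured 14.9, 13.2 and 44.2 CPM on day 6 and 48.3, 82.2 and 123 CPM on day 1 (adjusted p = 0.00984), and Smad7 fell by 2.12 ± 0.19. The lower level on day 6 held in the pair without added BMP2, where the list's median change was -1.41, against -2.27 and -1.14 at 10 and 50 ng/ml. Tob1, a repressor of BMP-SMAD signalling, rose by 1.19 ± 0.13. Hey1, a Notch and BMP target, followed dose rather than day, with 1, 25 and 210 read pairs on day 6 and 3, 74 and 180 on day 1, and did not pass (adjusted p = 0.693). Without the BMP2 dose term 6 of the 17 fell.

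Of 11 ligands, receptors and SMADs of the pathway tested, 2 rose and none fell, and with library sizes alone none rose and 1 fell. Gdf6, a BMP-family ligand, measured 43.8, 14.4 and 1.49 CPM on day 6 and 0.933, 0.409 and 0.314 CPM on day 1, and Smad1, a BMP-activated SMAD, rose by 0.30 ± 0.08. Bmp4 did not pass (45.2, 45.1 and 64.4 CPM on day 6 against 34.4, 20.1 and 15.1 CPM on day 1, adjusted p = 0.0530). In the TGF-beta list, 6 of 15 fell and 1 rose, and with library sizes alone none rose. Ltbp2, which encodes a matrix protein of the latent TGF-beta binding family, fell by 4.62 ± 0.32, and Skil, a SMAD corepressor induced by the pathway, by 1.78 ± 0.27, while the receptor Tgfbr1 rose by 0.47 ± 0.10.

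Axin2, Nkd2, Notum and Wif1, which restrain WNT signalling, rose, while the R-spondin receptors Lgr4 and Lgr6 and the ligand Rspo2 fell. The WNT list as a whole did not divide this way. Of its other secreted inhibitor genes, Dkk3 fell, and Dkk2 and Sfrp2 did not pass. The ligand gene Wnt10a rose and the receptor gene Lrp6 fell. In canonical WNT signalling, ligands act through FZD and LRP5/6 receptors on β-catenin and TCF/LEF factors, and R-spondins with LGR receptors amplify the signal. Of 26 genes tested 7 rose and 7 fell, a total near the background, but some of the changes were large. Axin2, the negative feedback target, measured 28.2, 31.1 and 16.9 CPM on day 6, against 1.91, 1.79 and 1.73 CPM on day 1 (log2 change 3.77 ± 0.20, adjusted p = 0.00284). Tcf7, which encodes TCF1, measured 38.6, 205 and 213 CPM on day 6 and 2.92, 6.86 and 8.99 CPM on day 1, and the feedback inhibitors Nkd2, Notum and Wif1 rose by 5.20 ± 0.54, 4.02 ± 0.47 and 6.23 ± 0.38. Tnfrsf19, a TNF receptor family member, measured 206, 430 and 389 CPM on day 6 and 3.51, 7.36 and 8.65 CPM on day 1 (log2 change 5.74 ± 0.13). For each of these genes the lowest day 6 library was above the highest day 1 library.

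On the side that fell, Lgr6, an R-spondin receptor, was nearly lost: 2, 4 and 64 read pairs were counted on day 6, against 2226, 4793 and 6845 on day 1 (adjusted p = 0.00763). Lgr4 fell by 0.64 ± 0.18 and the ligand Rspo2 by 2.52 ± 0.12, while Rspo3 did not pass (-0.68 ± 0.82, adjusted p = 0.528). Wisp2, a WNT-inducible secreted protein, and the ligand Wnt4 fell by 2.98 ± 0.50 and 1.46 ± 0.40. Lef1, another TCF/LEF factor, measured 9.75, 15.8 and 12.9 CPM on day 6 and 11.8, 11.5 and 12.2 CPM on day 1 and did not pass (adjusted p = 0.668).

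**Figure D2:**
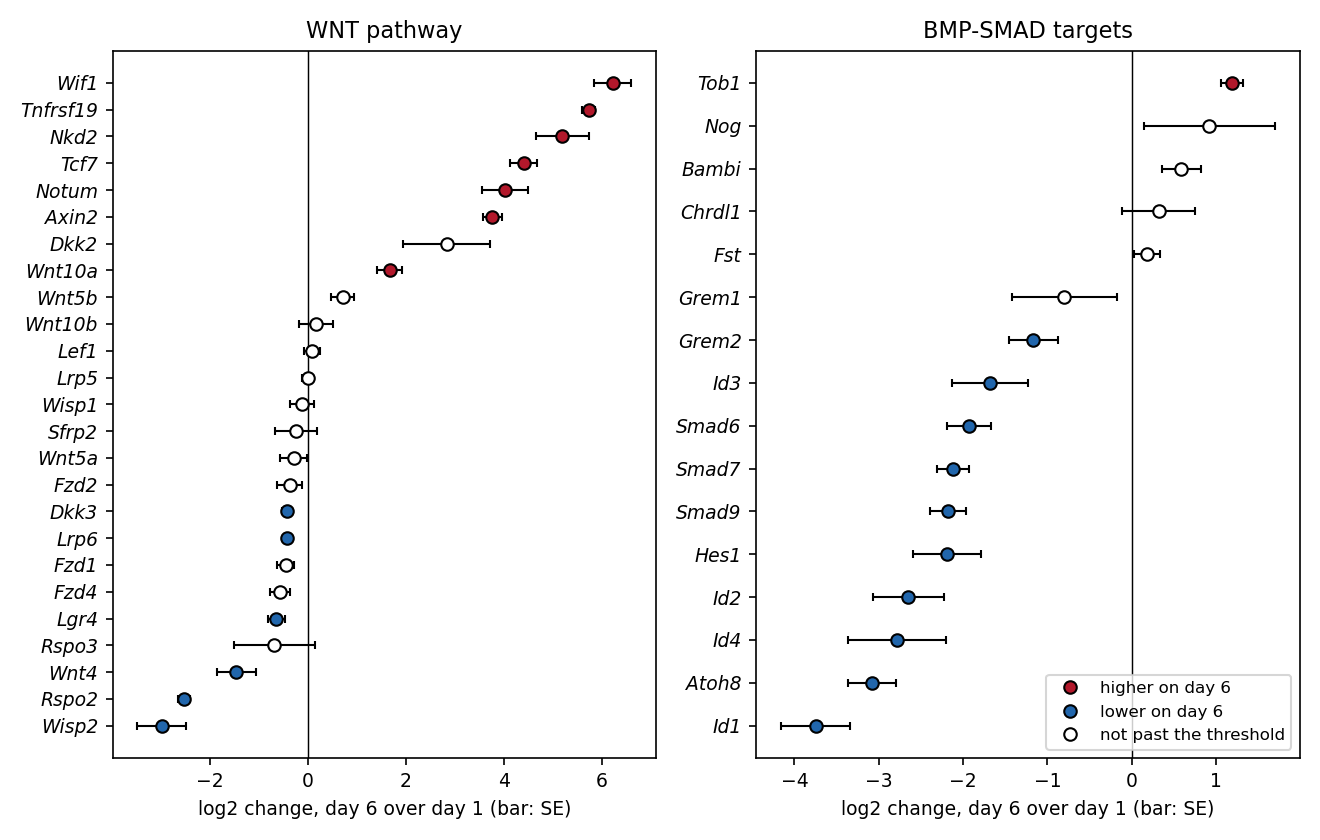
Fitted log2 change of day 6 over day 1 with its standard error for genes of the WNT pathway (left) and BMP-SMAD targets (right), 6 libraries. Filled points passed an adjusted p of 0.05. Lgr6 and Hey1, with under 3 read pairs in a library, are not drawn. Wif1, Tnfrsf19, Nkd2, Tcf7, Notum and Axin2 lie farthest to the right and Id1 and Atoh8 farthest to the left in the right panel.

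Among 14 hormone and growth factor receptors 5 rose and 5 fell. Pth1r, the parathyroid hormone receptor, measured 109, 373 and 613 CPM on day 6, against 60.6, 86.1 and 107 CPM on day 1 (log2 change 1.84 ± 0.37, adjusted p = 0.0222). Fgfr1 rose by 1.94 ± 0.12, Fgfr2 by 1.04 ± 0.08 and Ramp1, part of the CGRP receptor, by 5.13 ± 1.08. The vitamin D receptor Vdr fell by 1.74 ± 0.26 and Npr3, the natriuretic peptide clearance receptor, by 3.87 ± 0.22. Of the genes through which osteoblasts act on osteoclasts, Csf1, which encodes M-CSF, measured 139, 85.2 and 126 CPM on day 6 and 696, 747 and 781 CPM on day 1 (log2 change -2.70 ± 0.19). Cxcl12 fell by 2.78 ± 0.23. Tnfsf11, which encodes RANKL, had no read pair on day 6 and at most 1 on day 1. Tnfrsf11b, its decoy receptor osteoprotegerin, measured 71.3, 541 and 396 CPM on day 6 and 81.6, 93 and 91.2 CPM on day 1 (adjusted p = 0.118). Ostn, osteocrin, had 4, 1 and 7 read pairs on day 6 and none on day 1.

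Genes of DNA replication and mitosis were lower on day 6 almost without exception. All 28 replication genes fell, with a median log2 change of -1.61, and so did 28 of 29 mitotic genes, with a median of -1.29. Rrm2, the ribonucleotide reductase subunit of S phase, measured 38.4, 33.6 and 28.5 CPM on day 6, against 169, 201 and 217 CPM on day 1 (log2 change -2.55 ± 0.18, adjusted p = 0.00364). Cdc6, a licensing factor, fell by 2.28 ± 0.21, and Mybl2 and Foxm1, factors of the cell cycle genes, by 2.23 ± 0.12 and 1.73 ± 0.17. Mki67, the Ki-67 antigen gene, measured 285, 194 and 133 CPM on day 6 and 512, 523 and 497 CPM on day 1 (log2 change -1.39 ± 0.23, adjusted p = 0.0140). The exception was Nusap1, at 40.8, 34.9 and 21.4 CPM on day 6 and 51.1, 50.9 and 50.3 CPM on day 1 (adjusted p = 0.0505). All genes of both lists were lower in each day 6 library than in any day 1 library, which holds for 29.7% of all genes. With library sizes alone all of them passed.

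The cyclin-dependent kinase inhibitors moved less uniformly, with 4 of 13 genes of that list higher and 3 lower, and 2 higher and 3 lower with library sizes alone. Cdkn1a, which encodes p21, measured 261, 431 and 495 CPM on day 6, against 111, 130 and 137 CPM on day 1 (log2 change 1.61 ± 0.15, adjusted p = 0.00478). Btg2, an antiproliferative factor, rose by 1.42 ± 0.15, Rb1 by 0.59 ± 0.17 and Cdkn1b, which encodes p27, by 0.45 ± 0.07. Rbl1, the retinoblastoma relative p107, fell by 1.26 ± 0.09. Cdkn1c, which encodes p57, had at most 2 read pairs in any library.

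**Figure D3:**
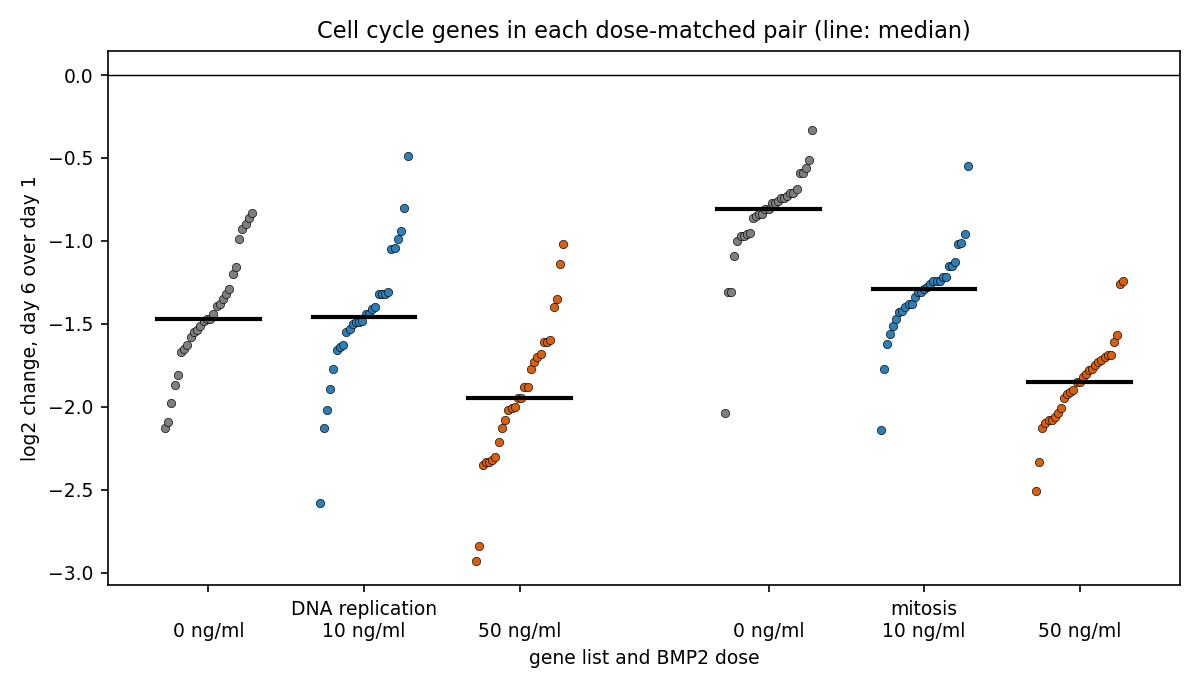
Log2 change of day 6 over day 1 for 28 DNA replication genes and 29 mitotic genes in each dose-matched pair, 1 point per gene with the median as a line. The replication medians were -1.47, -1.46 and -1.95 at 0, 10 and 50 ng/ml BMP2 and the mitotic medians -0.81, -1.29 and -1.85.

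Ezh2, the gene whose product GSK126 inhibits, was itself lower on day 6 in these cultures without GSK126. It measured 46, 38.4 and 32 CPM on day 6, against 75.8, 82.5 and 78.4 CPM on day 1 (log2 change -1.04 ± 0.13, adjusted p = 0.00772). Of 11 PRC2 genes 7 fell and 2 rose. Phf19 and Suz12 fell by 1.64 ± 0.37 and 0.43 ± 0.07, Eed did not pass (-0.08 ± 0.09, adjusted p = 0.486), and Ezh1, the other catalytic subunit, rose by 0.81 ± 0.07 together with Jarid2, an accessory subunit, by 0.71 ± 0.12. Of the H3K27 demethylase family, Kdm6b and Uty rose by 0.65 ± 0.08 and 0.56 ± 0.07, and Kdm6a was just outside the threshold (0.29 ± 0.09, adjusted p = 0.0515). The Ezh2 promoter is shown as the window of this gene, with an E2F motif (TTTGGCGC or TTTCCCGC) and CCAAT motifs in capitals.
Ezh2, chr6:47594981-47595280, minus strand: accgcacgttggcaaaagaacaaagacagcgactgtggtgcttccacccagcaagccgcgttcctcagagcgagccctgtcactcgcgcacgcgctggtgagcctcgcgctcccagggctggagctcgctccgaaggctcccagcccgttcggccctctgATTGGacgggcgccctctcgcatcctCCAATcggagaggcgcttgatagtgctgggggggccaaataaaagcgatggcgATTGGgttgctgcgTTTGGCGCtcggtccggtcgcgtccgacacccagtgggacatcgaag
Its E2F motif lay at 4 to 11 and its CCAAT motifs at -90 to -86, -64 to -60 and -11 to -7. Either E2F form stood in 1.56% of all promoter windows and in 8 of 27 windows of the replication genes (29.6%), against 0 of 25 windows of the mitotic genes. The CHR motif TTTGAA, known from late cell cycle promoters, stood in 18 of 25 windows of the mitotic genes (72%), in 2 of 27 of the replication genes and in 17.9% of all windows. CCAAT stood in 20 of 25 mitotic windows.

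**Figure D4:**
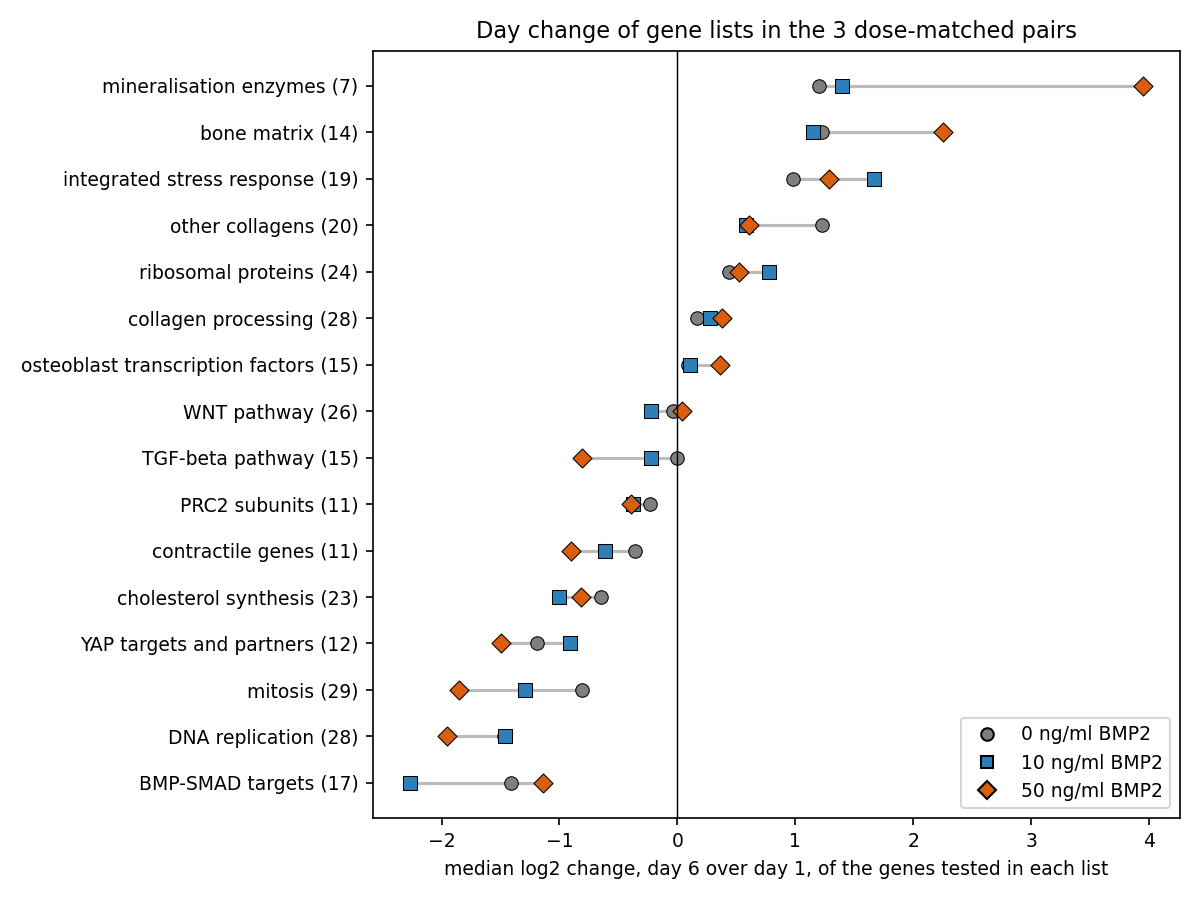
Median log2 change of day 6 over day 1 of the tested genes of 16 lists (number tested in brackets) in the pairs at 0, 10 and 50 ng/ml BMP2. The bone matrix medians were 1.23, 1.15 and 2.25 and the DNA replication medians -1.47, -1.46 and -1.95, against 0.01, 0.01 and 0.02 over all genes.

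Genes that read out the coactivator YAP, together with their partners, fell in 10 of 12 cases and rose in none. Ankrd1 measured 4.96, 4.35 and 3.83 CPM on day 6, against 75.4, 54.7 and 42.5 CPM on day 1 (log2 change -3.69 ± 0.12, adjusted p = 0.00176). Ctgf, which TGF-beta also induces, fell by 3.88 ± 0.35, Nuak2 by 2.66 ± 0.14 and the receptor kinase Axl by 1.85 ± 0.22. Yap1 and Wwtr1 themselves did not pass (-0.09 ± 0.11 and 0.09 ± 0.08). The TEAD motif GGAATG stood in 8 of 9 promoter windows of the list, against 14.7% of all windows. Of 11 contractile genes 7 fell, among them Tpm2 by 1.46 ± 0.24 and Acta2, smooth muscle actin, by 0.90 ± 0.23, and 1 rose (8 and none with library sizes alone). Of 11 surface genes of the progenitor fraction 2 rose, 3 fell and 6 did not pass, a share near the background. Ly6a, which encodes Sca-1, measured 5.13, 8.24 and 8.34 CPM on day 6 and 76.3, 97.4 and 93.2 CPM on day 1, and Mcam fell by 3.66 ± 0.31, while Nt5e, which encodes CD73, rose by 3.69 ± 0.39.

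Most cholesterol genes fell and most integrated stress genes rose. Of 23 genes of cholesterol synthesis and uptake 19 fell and 1 rose. Lss, which encodes lanosterol synthase, measured 77, 45 and 45.6 CPM on day 6, against 148, 134 and 131 CPM on day 1 (log2 change -1.35 ± 0.15, adjusted p = 0.00710). The sterol dehydrogenase gene Nsdhl fell by 1.38 ± 0.19, and Ebp, a sterol isomerase gene, rose by 0.56 ± 0.09. CCAAT stood in 16 of 19 of the promoter windows of this list, against 37.4% of all windows. The sterol element TCACNCCAC stood in 1 of the 19, against 1.24% of all windows. Of 19 genes of the integrated stress response, the programme that ATF4 drives, 16 rose and none fell, with a median of 1.57. Atf3, a stress-induced factor, rose by 4.74 ± 0.40. The lipoprotein receptor gene Vldlr measured 172, 264 and 258 CPM on day 6, against 16.1, 16.9 and 17.5 CPM on day 1, and Trib3 12.2, 30 and 26.6 CPM against 2.63, 3.66 and 3.32 CPM. Atf4 itself measured 187, 247 and 285 CPM on day 6 and 176, 183 and 202 CPM on day 1 (adjusted p = 0.0622). The ATF4-type motif TGATGNAA stood in 8 of 20 of the list's windows, against 3.97% of all windows.

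Among 24 ribosomal protein genes 22 were called higher on day 6 and none lower, but by little and not under each scaling: the median was 0.57, Rpl10 rose by 0.87 ± 0.11 and Rps18 by 0.81 ± 0.13, and with library sizes alone 7 of 24 passed. The share of Rn45s, given above, was higher in the same libraries, and its part in this result was not tested. Of 20 oxidative phosphorylation genes 3 rose and 2 fell, and with library sizes alone none rose and 3 fell.

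Other groups stood nearer the background, with some large changes in single genes. Of 16 glycolysis genes 5 rose and 2 fell (3 each with library sizes alone): Pdk1, the kinase that holds back pyruvate dehydrogenase, rose by 1.48 ± 0.07 and Hk2, hexokinase, fell by 0.60 ± 0.12. Of 18 genes of the secretory pathway 5 rose, among them Xbp1, a factor of the unfolded protein response, and 5 fell, among them the chaperone gene Calr, while with library sizes alone 2 rose and 8 fell. Of 9 interferon-response genes 4 rose and none fell (2 and none with library sizes alone), with Isg15 at 7.09, 3.03 and 4.9 CPM on day 6, against 1.55, 1.1 and 0.922 CPM on day 1. Of 10 antigen presentation genes 2 rose. Of 16 immediate early genes 4 rose and 3 fell, while with library sizes alone 3 rose and 7 fell: Fosl1, an AP-1 subunit gene, measured 0.447, 0.752 and 1.37 CPM on day 6 and 7.85, 10 and 14.1 CPM on day 1, while its relative Fosb rose by 1.89 ± 0.18.

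Growth factor and adhesion genes changed in both directions. Of 10 IGF genes 3 rose and 3 fell, and Igfbp7, an IGF-binding protein gene, fell by 1.68 ± 0.28. Of 6 imprinted growth genes 4 rose and 1 fell (2 and 1 with library sizes alone): Mest measured 405, 248 and 69.9 CPM on day 6 and 42.4, 23.2 and 18.5 CPM on day 1, and Plagl1, a zinc finger factor, 258, 162 and 265 CPM on day 6 and 31.7, 61.7 and 94.6 CPM on day 1. Of 17 adhesion genes 7 fell, among them Alcam, an adhesion receptor gene, by 3.32 ± 0.32, and 1 rose, the collagen-binding integrin gene Itga10, by 3.36 ± 0.40. Of 20 matricellular and proteoglycan genes 7 rose and 5 fell. Thbs1, thrombospondin, measured 546, 854 and 1451 CPM on day 6 and 3052, 3536 and 3466 CPM on day 1. Of 7 elastic fibre genes 3 fell and none rose, with the fibulins Fbln2 and Fbln5 falling by 1.37 ± 0.13 and 1.22 ± 0.28. Of 12 calcium and phosphate transporters 2 rose and 5 fell (1 and 6 with library sizes alone). None of the 5 osteocyte genes tested passed.

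Among genes that passed, averaged 5 CPM or more and held 3 or more read pairs in each of the 6 libraries, the largest rises were Sema6a (7.82 ± 0.44), Slc8a3, Enpp2 (7.55 ± 0.83), Car3 (7.41 ± 0.91), Rerg (6.83 ± 0.28), Mrgprf (6.79 ± 0.81), Ncf1 (6.68 ± 1.32), Lum, Omd, Wif1, Pgm5 (6.18 ± 0.56) and F13a1 (6.06 ± 1.61), as log2 changes with SE. Enpp2 encodes autotaxin, which makes lysophosphatidic acid: it measured 86, 99.2 and 8.4 CPM on day 6, against 0.295, 0.215 and 0.255 CPM on day 1. F13a1, a transglutaminase subunit, measured 391, 72.4 and 11 CPM on day 6, against 0.491, 1.01 and 1.57 CPM on day 1, so that the 10 and 50 ng/ml libraries were lower than Vehicle on day 6. Car3, a carbonic anhydrase, went the other way with dose (2.06, 39.7 and 118 CPM on day 6, against 0.147, 0.258 and 0.294 CPM on day 1).

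Within the same limits, which leave out Lgr6 and Cyp1a1, the largest falls were Pde2a (-5.03 ± 0.35), Ltbp2, Nqo1 (-4.52 ± 0.19), Col2a1, Rgs4 (-4.49 ± 0.68), Styk1 (-4.41 ± 0.28), Ptprb (-4.04 ± 0.33), Lamb3 (-4.02 ± 0.40), Cyp1b1 (-3.92 ± 0.22), Ctgf, Npr3 and Pkp2 (-3.79 ± 0.18). Nqo1, a quinone reductase, measured 14, 9.77 and 8.16 CPM on day 6, against 238, 244 and 233 CPM on day 1. Cyp1b1, a target of the aryl hydrocarbon receptor, measured 69, 40.1 and 34.4 CPM on day 6 and 722, 699 and 649 CPM on day 1. Its relative Cyp1a1 had at most 0.0304 CPM on day 6, against 5.5, 4.99 and 5.28 CPM on day 1. Both are genes that the receptor is known to induce.

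Of the called genes, 14 had under 3 read pairs in each day 1 library and 6 had under 3 in each day 6 library. Of the genes so low on day 1, the most abundant on day 6 were Accn1, Slc36a2, Plcg2, Xpnpep2, Hopx and Rab11fip4. Slc36a2 measured 0.277, 6.84 and 36.3 CPM on day 6. Accn1 was at 48.5 and 137 CPM in the day 6 libraries with 0 and 10 ng/ml and at 0 in the day 6 library with 50 ng/ml and in all 3 day 1 libraries. The genes that were close to absent on day 6 were Cyp1a1, Fam110c, Fam19a5, Vip, Nppb and Krt16.

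Whether the day change depended on BMP2 was tested as a trend over the dose steps 0, 10 and 50 ng/ml. Its p-values measure how far the libraries of each day departed from a straight line over the steps. Of 11773 genes 530 (4.5%) passed, 202 (1.72%) with a more positive change at higher dose and 328 (2.79%) with a more negative one. Mitotic genes stood out by count, with 25 of 29 negative and none positive, against 1 of 28 replication genes. Per dose step the log2 change of Ccnb2, a cyclin of mitosis, moved by -0.56 ± 0.07 (adjusted p = 0.0206) and that of Mki67 by -0.53 ± 0.08. On the positive side were Runx2 (0.41 ± 0.07, adjusted p = 0.0392), Spp1 (0.77 ± 0.11), Sparc (0.69 ± 0.12), Dlx5, a BMP-induced homeobox factor (0.44 ± 0.07), and Bglap among 14 bone matrix genes, of which 3 passed. Ibsp did not (0.19 ± 0.58, adjusted p = 0.918).

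Within the limits on CPM and read pairs given above, the trend called Cmya5, Abi3, Rhpn2, Me2, Krt14 and Tmem38b as the most positive and F13a1, Myo18b, Itga8, Fbn1, Chst2 and Ednra as the most negative. Abi3 overlaps Phospho1 on chromosome 11, so reads of Phospho1 may be counted in it, which was not tested. Tmem38b encodes an endoplasmic reticulum cation channel that is mutated in brittle bone disease, and it measured 23.4, 43.6 and 74.9 CPM on day 6, against 44, 21.3 and 15.3 CPM on day 1. Fbn1, fibrillin of elastic microfibrils, measured 743, 213 and 41 CPM on day 6 and 615, 693 and 708 CPM on day 1: the days differed little without BMP2, and at 50 ng/ml the day 6 level was far below the day 1 level (-2.19 ± 0.13 per step, adjusted p = 0.00638). The count rested on the coding of dose and on single libraries. With BMP2 coded as any or none, or in ng/ml, no gene passed (915 and 1435 at an unadjusted p under 0.05, smallest adjusted p 0.192 and 0.0829), while DESeq2 called 1096. Without a day 1 library at 0, 10 or 50 ng/ml 3, 2 and 1 genes passed, and 2336, 2885 and 2191 genes passed without the day 6 library at those doses. All 29 mitotic genes had a negative slope in each of these fits, but none was called without a day 1 library or with the other dose codings.

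The day change without GSK126 was then set against that under GSK126 in all 12 libraries. This fit gave each dose of each day its own level, so its SE and p-values measure how the GSK126 effect varied between doses. They do not measure how the day change varied between doses. For Dcn the SE of the day change was 0.12 in this fit and 0.67 in the fit of 6 libraries. Of 12056 genes 1279 (10.6%) differed, 800 (6.64%) with a more positive day change without GSK126 and 479 (3.97%) with a more negative one. All 29 mitotic genes and 17 of 28 replication genes were in the positive set: the median change of mitotic genes was -1.30 without GSK126 and -2.42 under GSK126. Mki67 changed by -1.40 ± 0.05 without GSK126 and by -2.53 ± 0.05 under it (difference 1.14 ± 0.07, adjusted p = 0.000270). Cholesterol genes (13 of 23 positive) had medians of -0.74 without and -1.70 under GSK126, and contractile genes (9 of 11 positive) -0.58 without and -1.04 under GSK126. Integrated stress genes were in the negative set in 14 of 19 cases and in the positive set in 1, Ddit4, with medians of 1.56 without and 1.91 under GSK126.

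The bone matrix genes had median changes of 1.5 without and 3.38 under GSK126. Most of their differences were negative, a more positive day change under GSK126, among them those of Bglap and Bglap2. No negative difference passed. Of the 15 tested 3 passed, against 10.6% of all genes, all positive: Mgp (0.86 ± 0.11 without and -0.09 ± 0.11 under GSK126), Dcn (4.70 ± 0.12 without and 3.88 ± 0.12 under GSK126) and Postn, periostin (0.20 ± 0.12 without and -0.92 ± 0.13 under GSK126). Ibsp changed by 5.93 ± 0.34 without and 6.95 ± 0.35 under GSK126 (adjusted p = 0.165), Runx2 by 1.71 ± 0.11 without and 1.85 ± 0.11 under it (adjusted p = 0.600), and Spp1 by -0.41 ± 0.45 without and 1.75 ± 0.46 under it (adjusted p = 0.0969). A p above the threshold does not show that these changes were alike. Axin2 rose more without GSK126 (difference 1.30 ± 0.26). Within the same limits on CPM and read pairs, the largest positive differences were those of Ifi27l2a, Fam131b, Cdh26, Pcyt1b, Scg5 and Aspn, and the largest negative ones those of Cdsn, Trib3, Gpnmb, Chac1, Megf10 and Col2a1. The count was 538 with BMP2 coded as any or none, and 367 to 413 without one of the day 1 libraries, 720 and 711 without the day 6 library at 10 ng/ml without and under GSK126, and 2179 to 2667 without another day 6 library. Of the mitotic genes 27 to 29 were positive and called with any 1 library left out and 16 with BMP2 as any or none. Of the 28 replication genes 5 to 25 were called with 1 library left out, fewest without a day 1 library.

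**Figure D5:**
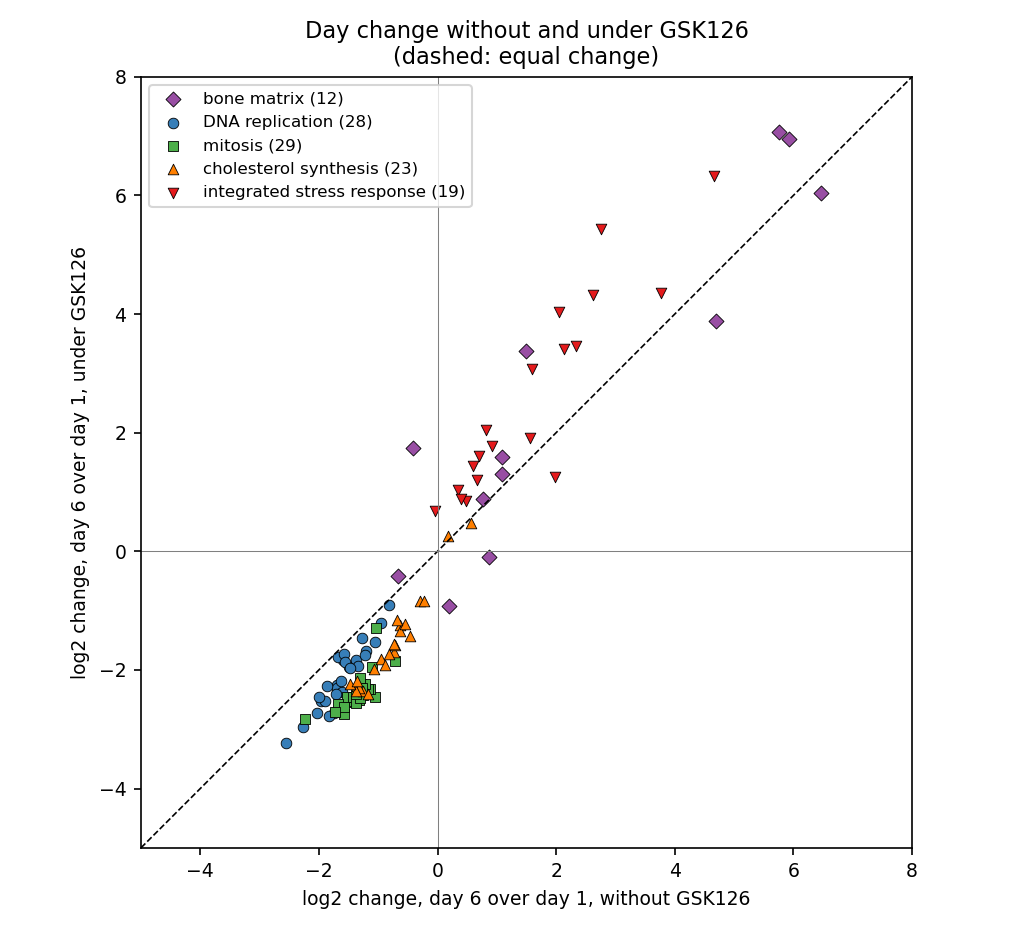
Log2 change of day 6 over day 1 without GSK126 (horizontal) and under GSK126 (vertical) from the fit of 12 libraries, for the genes of 5 lists with at least 3 read pairs in each of the 6 libraries without GSK126. Mitotic, replication and cholesterol genes lie below the dashed line of equal change, apart from a few near it, and most integrated stress genes lie above it.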

How the data were processed

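RNA was sequenced from MC3T3 sc4 cells in 12 libraries, 1 for each combination of day, BMP2 dose and GSK126. The labels name an Illumina mRNA kit, and reads were handled with bcl2fastq, TopHat2 2.0.6 and HTSeq against mm10, per the submitters' processing notes. The strand setting is not given in the sources used here, so overlapping and antisense genes cannot be told apart. The deposited table held raw gene counts for 23358 rows under 23315 names, and 69 rows that share a name were kept apart. RPKM values are those the authors deposited and served only to compare levels between genes, and the table's coding length column was not used in tests.

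Counts as deposited were tested with edgeR 4.0.16 (R 4.3.3, limma 3.58.1): TMM scaling, a robust quasi-likelihood fit, a filter of 1 CPM or more in 2 or more libraries of the fit, and Benjamini-Hochberg adjustment over all genes tested, with a threshold of 0.05. The day change was fitted in 6 libraries with BMP2 dose as a factor, its trend with dose steps in the same 6, and its difference from the change under GSK126 in all 12. Dose-matched libraries were paired through the dose term. DESeq2 1.42.0, limma-voom, other scalings, filters, dose codings and leaving out each library were the alternatives. On simulated counts the day change recovered 23.9%, 89.6% and 100% of genes changed by 0.5, 1 and 2 on the log2 scale.

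Gene lists and the libraries compared were chosen with earlier results of these data known. Beyond list members, genes were named by size: the 12 largest rises and falls of the day change among genes called with a mean of at least 5 CPM, and the 6 largest of each direction for the trend and for the difference from GSK126. Genes with under 3 read pairs in a library have no fold. A few genes are not reported here. Among called members of a list up to 5 were named by size, and others, such as Id3, Smad6, Tob1 and Rb1, were chosen after their values were seen. Promoter windows came from RefSeq tables of build GRCm38.p6. The standard errors cover the spread of these libraries and no biological replication, since each condition was 1 library.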

Additional observations from a re-analysis of the deposited data

Results flagged for a closer look

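Both tests of whether the day change itself differs between conditions gave calls, and the genes whose trend or difference was called and is described, or that were named by size, are given here. Other named genes were called too and are not listed. Genes named by size had a mean of at least 5 CPM and at least 3 read pairs in each of the 6 libraries without GSK126. The first is the trend of the day change with BMP2 dose without GSK126, with 530 genes past the threshold. Per dose step the log2 change moved by 0.41 for Runx2, 0.77 for Spp1, 0.69 for Sparc, 0.44 for Dlx5, -0.53 for Mki67, -0.56 for Ccnb2 and -2.19 for Fbn1. The fitted slope of Bglap, 1.91, rests on 2, 5 and 8 read pairs on day 1. Within these limits the most positive slopes were 2.10 for Cmya5, 1.96 for Abi3 (which overlaps Phospho1), 1.87 for Rhpn2, 1.68 for Me2, 1.62 for Krt14 and 1.60 for Tmem38b. The most negative were -3.38 for F13a1, -2.49 for Myo18b, -2.33 for Itga8, -2.14 for Chst2 and -1.97 for Ednra. Me2, mitochondrial malic enzyme, measured 20, 83.3 and 188 CPM on day 6 at 0, 10 and 50 ng/ml, against 32.9, 31.7 and 30 CPM on day 1. Itga8, an integrin subunit gene, ran the opposite way, at 70.3, 18.6 and 2.16 CPM on day 6 against 3.31, 2.8 and 2.75 CPM on day 1. For both genes the order by dose was large on day 6 and small on day 1.

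The second is the day change without GSK126 against that under GSK126, with 1279 genes past the threshold. A positive difference means a more positive day change without GSK126. It was 0.95 for Mgp, 0.82 for Dcn, 1.12 for Postn, 1.30 for Axin2, 1.14 for Mki67, 0.72 for Ddit4 and 0.65 for Tpm2. Within the same limits the largest positive differences were 2.39 for Ifi27l2a, 2.13 for Fam131b, 2.11 for Cdh26, 1.81 for Pcyt1b, 1.73 for Scg5 and 1.72 for Aspn. The largest negative ones were -2.91 for Cdsn, -2.68 for Trib3, -2.17 for Gpnmb, -1.98 for Chac1, -1.97 for Megf10 and -1.94 for Col2a1. Cdsn changed by -0.65 without GSK126 and by 2.27 under GSK126, so its direction differed, while Col2a1 was lower on day 6 in both (-4.48 without and -2.54 under GSK126). Gpnmb changed by 0.43 without GSK126 and by 2.60 under GSK126.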

How the results depend on the processing

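The day 6 against day 1 count of 5269 genes was 8032 with the spread estimated from all 12 libraries, where 4080 were higher and 3952 lower. That spread is of the GSK126 effect between doses, not of the day change. The other settings gave 4787 to 5914 genes. With 1 library left out it ran between 0 and 4724, and the cause of the loss without a 10 ng/ml library was not tested. The trend count of 530 was 1096 with DESeq2, 0 with any BMP2 against none (915 at an unadjusted p under 0.05), 0 with dose in ng/ml (1435) and 1 to 2885 with 1 library left out. The count of 1279 for the day change without GSK126 against that under GSK126 was 538 with any BMP2 in place of dose and 367 to 2667 with 1 library left out. Of 2124 values of 215 genes for the day change under settings other than leaving out a library, 2017 kept their direction and side of the threshold, 64 no longer passed, 37 newly passed and 6 changed sign, all of genes that did not pass. With library sizes alone the log2 change was -0.05 for Postn, -0.09 for Dlx5, -0.13 for Lef1 and -0.13 for Wwtr1, and Hey1 was at 0.28 with limma-voom and 0.42 with no BMP2 dose term. With 1 library left out the change ran from -0.44 to 0.67 for Postn, -0.10 to 0.35 for Dlx5, -1.36 to 0.33 for Hey1, -0.09 to 0.28 for Lef1, -0.14 to 0.00 for Eed, -0.22 to 0.02 for Yap1 and -1.65 to 0.21 for Rspo3, the trend of Ibsp from -0.88 to 1.19, and the difference of Runx2 from its change under GSK126 from -0.30 to 0.01. The cause of these sign changes was not tested. Libraries were paired by dose, not by a replicate number, and without the dose term 5324 genes passed, of which 4808 were also called with it in the same direction. Each condition held 1 library, so small changes (23.9% recovered at 0.5 on the log2 scale in the simulation) and genes near 3 read pairs are poorly resolved. So are larger changes that differ between doses: Smpd3 (4.01 ± 1.14) and Phex (2.54 ± 0.85) did not pass.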
